A study of Mus musculus with 6 samples.

Results

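Muscle cells fill and empty an internal calcium store, the sarcoplasmic reticulum. Calcium released from it starts contraction, and calcium pumps of the SERCA family return it to the lumen, where calsequestrin and other proteins hold it at high capacity. Differentiating myoblasts build this compartment as they fuse into myotubes. The genes described here are 10 genes of calcium uptake, storage and buffering: the pump genes *Atp2a1*, *Atp2a2* and *Atp2a3*, the calsequestrin genes *Casq1* and *Casq2*, the pump inhibitor *Sln*, the luminal proteins *Srl* and *Hrc*, the short-chain dehydrogenase *Dhrs7c* and the cytosolic buffer *Pvalb*. They are 10 of the 46078 genes listed with counts, found by their symbols. The set was chosen with the KO and WT values already in view, *Dhrs7c* because it was among the largest falls, so the comparison of KO with WT is given below for these genes as a description, without p-values. All 10 passed the filter on low counts, *Sln* only with the help of its WT libraries.

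The cells were C2C12, a clonal mouse myoblast line that forms myotubes when serum is withdrawn. KO cells had received Cas9 and a guide RNA against *Hnrnpa2b1*, which encodes an RNA-binding protein, and both KO and WT cells were grown out as 3 clones each according to the methods, although which clone gave which library is not stated. All 6 cultures, 3 KO and 3 WT, had differentiated for 2 days, and their total RNA was sequenced after removal of ribosomal RNA. The libraries are called KO1 to KO3 and WT1 to WT3. Where libraries are compared, the spread is that between these cultures, and p-values measure no more than that.

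Each library held 33605258 to 40558740 reads counted on genes. CPM are counts relative to the library total after TMM scaling, and TPM are the deposited values corrected for transcript length. RNA of the targeted gene did not separate the labels: *Hnrnpa2b1* stood at 159, 195 and 249 CPM in KO1 to KO3 and at 225, 229 and 252 CPM in WT1 to WT3, so KO and WT below mean the libraries so labelled. The methods state that knockout in the clones was established by antibody staining and Western blots for the protein, which were not analysed here. Of 14828 genes tested with edgeR's quasi-likelihood test, 3361 (22.7%) passed an adjusted p of 0.05 and 1565 (10.6%) passed it with lower levels in KO. Defining genes of skeletal myotubes were present in every library. In TPM, *Mylpf* and *Acta1*, a fast myosin light chain and skeletal actin, were the highest of the 21 listed. Summed over the list, TPM came to 14272 (KO1), 6135 (KO2) and 6245 (KO3), with a WT range of 10885 to 14828. By this sum KO1 was within the WT range and the other two KO libraries were below it. Single markers differed: in KO1, 6 of the 21 were below the WT range, among them *Myl1* and *Myh3*. In that library 7 were within the range and 8 were above it, among them *Acta1* and *Tnnt3*. In KO2, 17 were below the WT range, 4 within it and 0 above it. In KO3, 18 were below it, 1 was within it and 2, *Ttn* and *Neb*, were above it. Of the 21 markers 1, *Myl1*, passed the test, beside 22.7% of all tested genes. Its log2 fold change was −2.39 (SE 0.61, edgeR adjusted p = 0.0297). An unadjusted p under 0.05 was reached by 5 of the 21 markers, beside 39.0% of all tested genes. In DESeq2 3 of the markers passed, beside 4149 of 30252 genes. Fold changes were negative for 15 of the 21, with a median of −0.44, and −1.27 without KO1. The summed TPM of 8 genes of undifferentiated myoblasts and reserve cells, led by *Top2a*, came to 32.7 (KO1), 66.6 (KO2) and 70.3 (KO3), with a WT range of 39.7 to 45.6. Within this list *Pax7* (1.52) and *Id1* (1.23) rose and *Myf5* (−1.50) and *Spry1* (−1.22) fell on the log2 scale (edgeR adjusted p = 0.0223, 0.00957, 0.0303 and 0.0130), so the list did not move one way. Among 8 cardiac genes *Nppa*, *Nppb*, *Myl7* and *Tbx5* had at most 3 counts in every library. The other 4 were detected, led by *Myl4*, a light chain of atrial and developing skeletal muscle. Of these 4, 0 passed in edgeR (1 at an unadjusted p under 0.05, and 1 in DESeq2). *Myl4* was 685, 62.1 and 106 TPM in KO and 885, 709 and 922 TPM in WT, and the list summed to 693, 68.2 and 111 TPM in KO and to 719 to 944 TPM in WT, so that it was low in KO2 and KO3 as the myotube list was. Markers of blood, endothelium and fat summed to at most 1.73, 0.217 and 0 TPM. The endothelial marker *Kdr* passed as lower in KO at a trace level, with 0.0560, 0.366 and 0.244 CPM in KO and 0.723, 0.945 and 1.37 CPM in WT (log2 fold change −2.15, SE 0.59, edgeR adjusted p = 0.0363). Of 4 smooth muscle genes, which summed to 18.9 to 22.1 TPM in KO and 22.3 to 25.9 TPM in WT, *Lmod1* passed as lower in KO (−1.27, SE 0.29, edgeR adjusted p = 0.0208).

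Of the 10 genes, 5 passed the threshold with lower levels in KO (*Atp2a1*, *Atp2a3*, *Srl*, *Hrc* and *Dhrs7c*) and 0 with higher levels, beside 10.6% lower among all tested genes. The genotypes did not overlap, with KO lower, for 6 genes, these 5 and *Sln*, beside 21.6% of all tested genes (3201). The median log2 fold change of the 10 genes was −1.17, beside 0.03 over all tested genes. Without KO1 it was −1.83, beside 0.03. Because the genes were picked on this contrast, nothing is read from these counts. In RNA from whole cultures, fewer cells expressing a gene and less RNA per cell cannot be told apart.

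**Figure D1:**
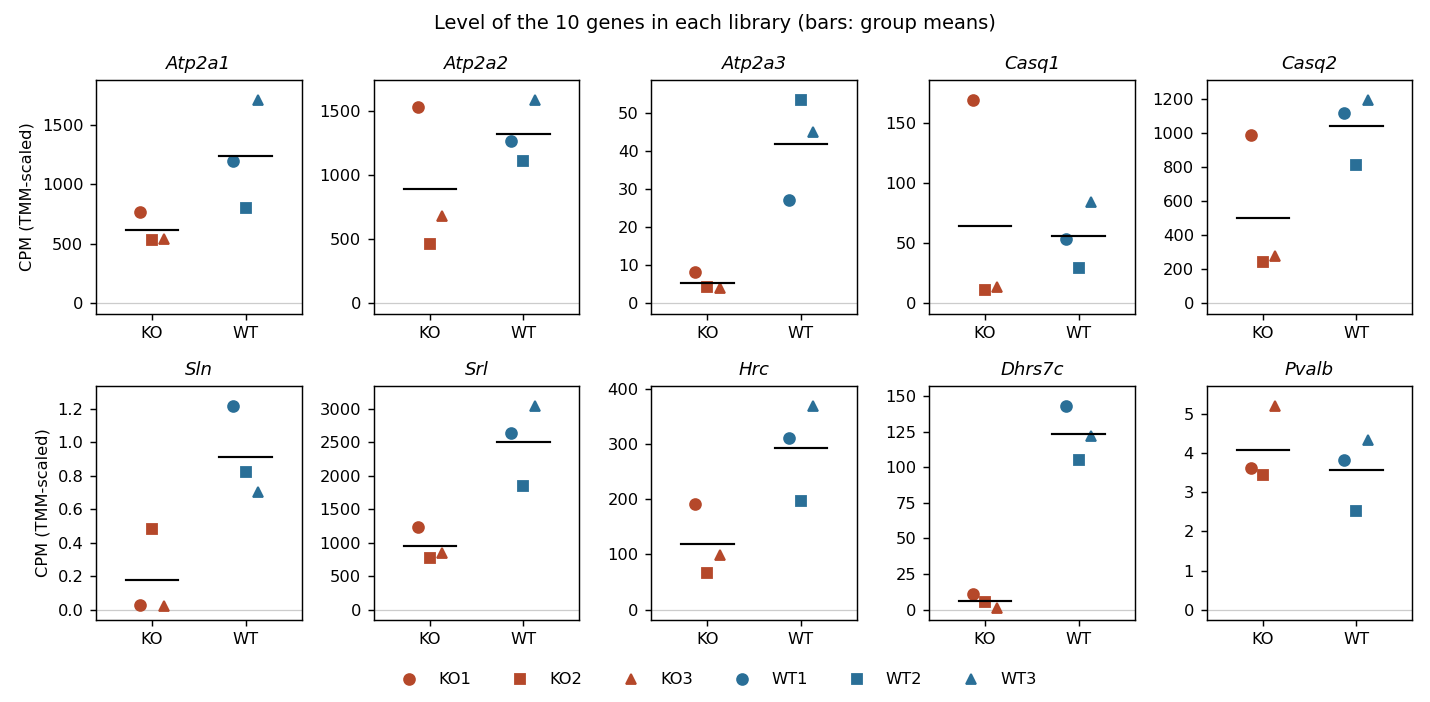
Level of each of the 10 genes, in TMM-scaled CPM on linear axes, in the 3 KO libraries (red) and the 3 WT libraries (blue), with bars at the group means. *Dhrs7c* and *Atp2a3* sit far below WT in all KO libraries, whereas KO1 lies within the WT range for *Atp2a2* and *Casq2* and above it for *Casq1*.

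*Dhrs7c* (ENSMUSG00000033044, chromosome 11 from 67798187 to 67816005, GRCm38) encodes a dehydrogenase/reductase of the sarcoplasmic reticulum membrane of striated muscle. Its level was 11.1, 5.15 and 1.1 CPM in KO1, KO2 and KO3 and 143, 106 and 122 CPM in WT1, WT2 and WT3. The highest KO library thus stood far under the lowest WT library, and the KO libraries differed widely from each other. These values rested on 398, 225 and 45 counts in KO and 3462 to 4943 counts in WT. Relative to WT, the fitted log2 fold change in KO was −4.42 (SE 0.69), a level 21.4-fold lower, and −5.30 (SE 0.57) without KO1. TPM gave the same picture, with 6.39, 3.06 and 0.861 in KO and 88.8, 67.5 and 69.9 in WT. Over 14 alternative analyses of the same 6 libraries the value lay between −5.30 and −3.92, which describes the range and is no further support.

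The genes whose profile over the 6 libraries was most like that of *Dhrs7c*, among 8996 genes whose mean log2 CPM reached 3, were *Afap1l1*, *Rps27l*, *Rab27b*, *Mrpl38* and *Cox10*. Pearson's r of log2 CPM was 0.997 to 0.999 over 6 libraries that fall into 2 genotypes, so it mostly describes the step between them. *Afap1l1*, a relative of an actin filament binding protein, stood at 22.9, 17.6 and 9.20 CPM in KO and 84.8, 73.7 and 78.5 CPM in WT. Like *Dhrs7c*, it was lowest in KO3. *Cox10*, an assembly factor of cytochrome oxidase, changed by less, from 22.3 to 24.3 CPM in WT to 11.7 to 15.9 CPM in KO.

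The SERCA pumps carry calcium into the lumen at the cost of ATP. *Atp2a1* (ENSMUSG00000030730, chromosome 7 from 126445858 to 126463108) encodes SERCA1, the pump of fast muscle fibres. Its level was 771, 535 and 544 CPM in KO and 1192, 801 and 1706 CPM in WT. The groups did not overlap, but the highest KO library (KO1) and the lowest WT library (WT2) lay close together. On the log2 scale it changed by −1.0 (SE 0.30). The threshold was no longer passed without KO2 (−0.91), KO3 (−0.91), WT1 (−1.03) or WT3 (−0.72), with a replicate block (−0.95) or with unfiltered TPM (−0.94). *Atp2a1* shares exon bases with *Rabep2* on the opposite strand, which had 599 to 1085 counts. The sources used here do not state whether the counting used strand, so reads in the shared bases cannot be assigned with certainty, although *Atp2a1* itself had 22271 to 63295 counts.

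*Atp2a2* (ENSMUSG00000029467, chromosome 5 from 122453513 to 122502225) encodes SERCA2, the pump of slow and cardiac muscle and, as a longer isoform, of the endoplasmic reticulum of most cells. Its level was 1532, 463 and 684 CPM in KO and 1269, 1109 and 1587 CPM in WT. KO1 lay at the WT level, and KO2 and KO3 were below every WT library. Its log2 fold change of −0.57 (SE 0.41) did not pass the threshold. Without KO1 it was −1.21 (SE 0.25) and passed. Gene counts do not separate the isoforms.

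*Atp2a3* (ENSMUSG00000020788, chromosome 11 from 72961169 to 72993044) encodes SERCA3, a pump best known from blood cells, endothelium and epithelia. Its level was 8.25, 4.31 and 3.95 CPM in KO and 27.2, 53.5 and 45.0 CPM in WT. All KO libraries were below those of WT, and unlike most of the set it was lowest in WT1 among the WT libraries. The fitted change was −2.93 on the log2 scale (SE 0.36), a level 7.63-fold lower, and −3.35 (SE 0.31) without KO1. Over the 14 alternatives it lay between −3.35 and −1.99. The lowest of these values came from leaving out KO1 and the one nearest to 0 from the log2(TPM + 1) scale, which compresses changes of low genes. Of the endothelial markers *Kdr* was also lower in every KO library, whereas *Tek* (0.0839, 0.298 and 0.269 CPM in KO, 0.318, 0.183 and 0.296 CPM in WT), *Pecam1* and *Cdh5* overlapped. *Cd68*, the tested blood marker, was 3.41, 2.13 and 3.03 CPM in KO and 2.40, 1.86 and 1.91 CPM in WT. The part of such cells in this result was not tested.

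The make-up of the pump RNA was compared in TPM, which is per length. *Atp2a1* and *Atp2a2* together gave nearly all of it in every library. The *Atp2a1* to *Atp2a2* ratio was 0.777, 1.83 and 1.22 in KO1, KO2 and KO3 and 1.43, 1.13 and 1.67 in WT. KO1 was the library in which *Atp2a2* exceeded *Atp2a1*, whereas the ratio in KO2 was above those of WT and that in KO3 among them. *Atp2a3* made up 0.248%, 0.289% and 0.204% of pump TPM in KO and 0.732%, 1.92% and 0.874% in WT. The share of *Atp2a3* was thus lower in every KO library than in every WT library. The summed pump TPM was 446, 218 and 320 in KO and 566, 440 and 726 in WT.

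**Figure D2:**
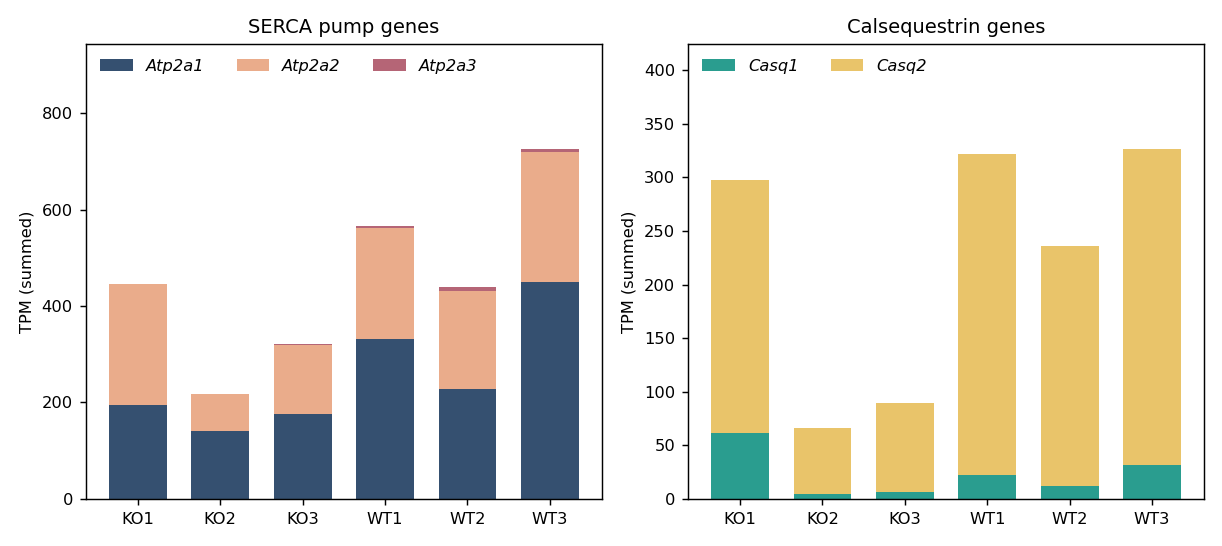
Summed TPM of the SERCA pump genes (left) and the calsequestrin genes (right) in each of the 6 libraries, 1 stacked bar per library on axes from 0. *Atp2a3* is a thin band at the top of the WT bars. KO1 keeps calsequestrin RNA near the WT level, at 298 TPM, whereas KO2 and KO3 are at 66.6 and 89.5 TPM.

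Calsequestrins are the main calcium-binding proteins of the lumen. *Casq2* (ENSMUSG00000027861, chromosome 3 from 102086415 to 102146514) encodes the cardiac and slow-muscle form and was the prevailing one in these cells. Its level was 987, 245 and 277 CPM in KO and 1117, 810 and 1191 CPM in WT. KO1 lay inside the WT range, and KO2 and KO3 lay far below it. A log2 fold change of −1.05 (SE 0.52) did not pass the threshold. It was −2.0 (SE 0.23) without KO1 and passed, as it did without a filter on low counts (−1.07). *Casq1* (ENSMUSG00000007122, chromosome 1 from 172209894 to 172219868), the form of fast skeletal muscle, was 169, 11.1 and 13.9 CPM in KO and 53.9, 29.7 and 84.4 CPM in WT. KO1 was the highest of all 6 libraries and the other two KO libraries were the lowest. The log2 fold change of 0.20 (SE 0.96) therefore describes none of the KO libraries, and it was −2.17 (SE 0.40) without KO1, where it passed the threshold. *Casq1* made up 20.6% (KO1), 6.65% (KO2) and 7.03% (KO3) of calsequestrin TPM, with a WT range of 5.28% to 9.82%. The share in KO2 and KO3 was within the WT range although the sum of both genes was not.

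Promoter windows were looked up for the set because several of its genes were high or low in the same libraries. RefSeq windows on GRCm38.p6, from 250 bases before to 50 bases after the gene start, matched 6 of the 10 genes. *Atp2a2*, *Sln*, *Srl* and *Dhrs7c* had no entry. The windows of *Atp2a1* and *Hrc*, which were below WT in all KO libraries, of *Casq1* and *Casq2*, which reached the WT level or exceeded it in KO1, and of *Atp2a3* are printed 5′ to 3′ on the strand of the gene. Capitals mark matches to CANNTG, the E-box letters read by basic helix-loop-helix factors such as MyoD, and to the MEF2 consensus by its name. Both motifs read the same on either strand.
Casq1: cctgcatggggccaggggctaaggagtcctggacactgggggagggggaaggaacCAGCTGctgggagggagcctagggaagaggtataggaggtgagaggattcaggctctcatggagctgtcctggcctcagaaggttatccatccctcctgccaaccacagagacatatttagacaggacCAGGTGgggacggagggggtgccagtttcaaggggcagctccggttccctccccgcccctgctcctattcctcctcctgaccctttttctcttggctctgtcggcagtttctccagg
Casq2: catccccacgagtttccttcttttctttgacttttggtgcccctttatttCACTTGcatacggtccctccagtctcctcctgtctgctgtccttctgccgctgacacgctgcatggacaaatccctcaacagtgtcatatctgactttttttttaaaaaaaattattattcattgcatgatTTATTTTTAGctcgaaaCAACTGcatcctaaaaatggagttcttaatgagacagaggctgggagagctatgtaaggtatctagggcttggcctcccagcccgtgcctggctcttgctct
Atp2a1: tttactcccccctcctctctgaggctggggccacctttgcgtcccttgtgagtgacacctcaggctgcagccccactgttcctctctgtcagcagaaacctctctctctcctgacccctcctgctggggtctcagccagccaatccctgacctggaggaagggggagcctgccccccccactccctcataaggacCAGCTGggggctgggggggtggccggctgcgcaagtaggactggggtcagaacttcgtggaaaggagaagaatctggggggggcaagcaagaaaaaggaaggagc
Hrc: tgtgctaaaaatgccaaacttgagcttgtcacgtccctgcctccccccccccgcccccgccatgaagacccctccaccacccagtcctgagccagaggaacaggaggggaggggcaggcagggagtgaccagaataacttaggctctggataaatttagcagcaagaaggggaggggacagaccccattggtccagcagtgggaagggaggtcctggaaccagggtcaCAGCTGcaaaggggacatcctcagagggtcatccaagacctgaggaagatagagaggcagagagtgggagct
Atp2a3: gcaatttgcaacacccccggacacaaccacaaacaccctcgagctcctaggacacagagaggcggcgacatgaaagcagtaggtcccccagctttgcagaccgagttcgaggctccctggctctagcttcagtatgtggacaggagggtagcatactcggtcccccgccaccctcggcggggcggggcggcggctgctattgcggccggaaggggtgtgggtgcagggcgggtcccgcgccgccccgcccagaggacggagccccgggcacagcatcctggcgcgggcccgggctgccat
The window of *Casq1* (chr1:172219846-172220145, minus strand) held CANNTG 195 and 67 bases before the start, the first of them as CAGCTG. That of *Casq2* (chr3:102086165-102086464, plus strand) held CANNTG 200 and 52 bases before the start and the MEF2 consensus 69 bases before it. *Atp2a1* (chr7:126463024-126463323, minus strand) and *Hrc* (chr7:45335019-45335318, plus strand) each held 1 CAGCTG, 55 and 22 bases before the start. In the *Atp2a3* window (chr11:72960919-72961218, plus strand) neither motif was found. Of the windows of *Pvalb*, which are not printed, 1 held the MEF2 consensus and the other held CANNTG. Among all 32851 windows, 72.3% held CANNTG, 16.3% held CAGCTG (which every count of CANNTG includes) and 3.19% held the MEF2 consensus. CANNTG is therefore common and says little of a single window. A match describes the letters and is neither a bound site nor a cause, and the absence of a match concerns only these letters in these windows.

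*Srl* (ENSMUSG00000022519, chromosome 16 from 4480216 to 4541816) encodes sarcalumenin, a glycoprotein of the lumen that binds calcium and associates with the pumps. Its level was 1233, 772 and 845 CPM in KO and 2632, 1852 and 3037 CPM in WT, with no overlap and a clear gap. The fitted log2 fold change was −1.40 (SE 0.28) and lay between −1.64 and −1.25 in the 14 alternatives. Without WT1 (−1.37) it did not pass the threshold. *Hrc* (ENSMUSG00000038239, chromosome 7 from 45335290 to 45338973) encodes the histidine-rich calcium-binding protein, which binds SERCA and triadin from the lumen. Its level was 191, 66.8 and 98.9 CPM in KO and 311, 197 and 369 CPM in WT. KO1 and WT2 nearly met, at 191 and 197 CPM. *Hrc* changed by −1.30 on the log2 scale (SE 0.39). It did not pass the threshold without KO2 (−1.01), KO3 (−1.18), WT1 (−1.26) or WT3 (−1.13), nor among genes with a CPM of at least 1 in 3 libraries (−1.28) or with unfiltered TPM (−1.37).

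*Sln* (ENSMUSG00000042045, chromosome 9 from 53850251 to 53853844) encodes sarcolipin, a small membrane peptide that inhibits SERCA. It was near the limit of detection, with 1, 21 and 1 counts in KO and 42, 27 and 26 counts in WT. Counts of 3 or fewer were taken as not distinguishable from 0, which applies to KO1 and KO3. In CPM, KO2 (0.481) was below the lowest WT library (0.701). The fitted log2 fold change of −2.29 (SE 0.89) did not pass the threshold, while those in DESeq2 (−2.36), without a filter on low counts (−2.32) and without KO2 (−4.95) did. With KO1 and KO3 at 1 count each, none of these values is read as the size of a change. In TPM *Sln* is listed at 0 in KO1 and KO3. *Pvalb* (ENSMUSG00000005716, chromosome 15 from 78191114 to 78206400) encodes parvalbumin, a soluble buffer that speeds relaxation of fast fibres. Its level was 3.61, 3.44 and 5.20 CPM in KO and 3.82, 2.53 and 4.34 CPM in WT, on 83 to 213 counts. The libraries of both genotypes were interleaved. With a log2 fold change of 0.20 (SE 0.30) it did not pass.

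On the per-length scale of TPM, the order of the medians in WT was *Srl* (415), *Atp2a1* (331), *Casq2* (295), *Atp2a2* (232), *Hrc* (89.7), *Dhrs7c* (69.9), *Casq1* (21.9), *Atp2a3* (6.34), *Pvalb* (2.84) and *Sln* (1.19). Neighbours among the first 4 overlapped between libraries, as did *Hrc* and *Dhrs7c*, whereas each of the other neighbours was separate. In KO the order was *Atp2a1* (176), *Srl* (165), *Atp2a2* (144), *Casq2* (83.2), *Hrc* (31.6), *Casq1* (6.29), *Dhrs7c* (3.06), *Pvalb* (2.33), *Atp2a3* (0.654) and *Sln*. The neighbours from *Atp2a1* to *Casq2* again overlapped, and so did those from *Hrc* to *Pvalb*. *Dhrs7c*, which in WT was near *Hrc* and well above *Pvalb*, overlapped with *Pvalb* in KO.

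The KO libraries did not resemble each other equally. Relative to the WT mean of log2(CPM + 0.5), the median of the 10 genes stood at −0.59 (KO1), −1.86 (KO2) and −1.52 (KO3), while the median over all tested genes was 0.01 to 0.02 in each. KO2 had 10 of the 10 genes below the WT mean, KO3 had 9 and KO1 had 7. WT2 was the low WT library, with 9 genes below the WT mean and a median of −0.37, against 0.11 in WT1 and 0.28 in WT3. The gap between KO1 and the mean of KO2 and KO3 was 3.71 for *Casq1*, 1.95 for *Dhrs7c*, 1.92 for *Casq2*, 1.44 for *Atp2a2* and 1.23 for *Hrc*, on the log2 scale. It was 0.92 or less for *Atp2a3*, *Srl* and *Atp2a1*, and KO1 was below the mean of KO2 and KO3 for *Sln* (−0.44) and *Pvalb* (−0.20). *Dhrs7c* and *Atp2a3* were below the WT range in KO1 too, at −3.40 and −2.22 from the WT mean.

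**Figure D3:**
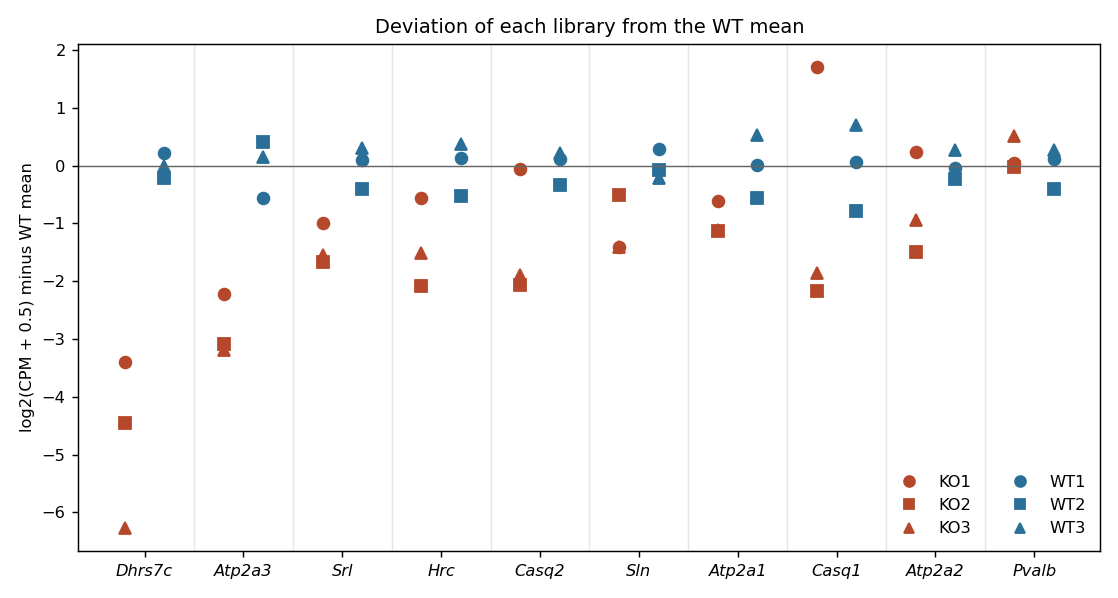
Difference of each library from the WT mean of log2(CPM + 0.5), for the 10 genes ordered by the KO mean, with KO in red and WT in blue and the library number given by the symbol. KO1 (red circle) reaches 1.71 for *Casq1* and −3.40 for *Dhrs7c*, and KO3 reaches −6.27 for *Dhrs7c*.

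The sum of the myotube markers moved with several of these genes, since KO2 and KO3 were low in both and KO1 was not. Each gene was therefore also given per 10000 TPM of the 21 myotube markers, none of which is among the 10 genes. This scale was chosen after the values had been seen. *Dhrs7c* stood at 4.48, 5.00 and 1.38 in KO and 59.9, 62.0 and 53.0 in WT, a ratio of WT to KO means of 16.1. *Atp2a3* stood at 0.776, 1.03 and 1.05 in KO and 2.80, 7.76 and 4.81 in WT, a ratio of 5.39. Without this scaling the ratios in TPM were 21.9 and 7.92, and on both scales every KO library was under the lowest WT library for these genes. *Casq2* stood at 166, 101 and 133 in KO and 202, 205 and 223 in WT, so that its KO and WT libraries no longer overlapped. *Srl* (132, 217 and 265 against 280, 281 and 338) and *Hrc* (34.2, 29.3 and 50.7 against 60.5, 53.3 and 74.0) remained below WT in each KO library, by ratios of 1.46 and 1.65. *Atp2a1* (136, 229 and 282 against 223, 210 and 341) and *Atp2a2* (175, 125 and 230 against 156, 186 and 205) overlapped. *Casq1*, *Sln* and *Pvalb* overlapped as well. The part of the myotube markers in the difference of any of the 10 genes was not tested.

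**Figure D4:**
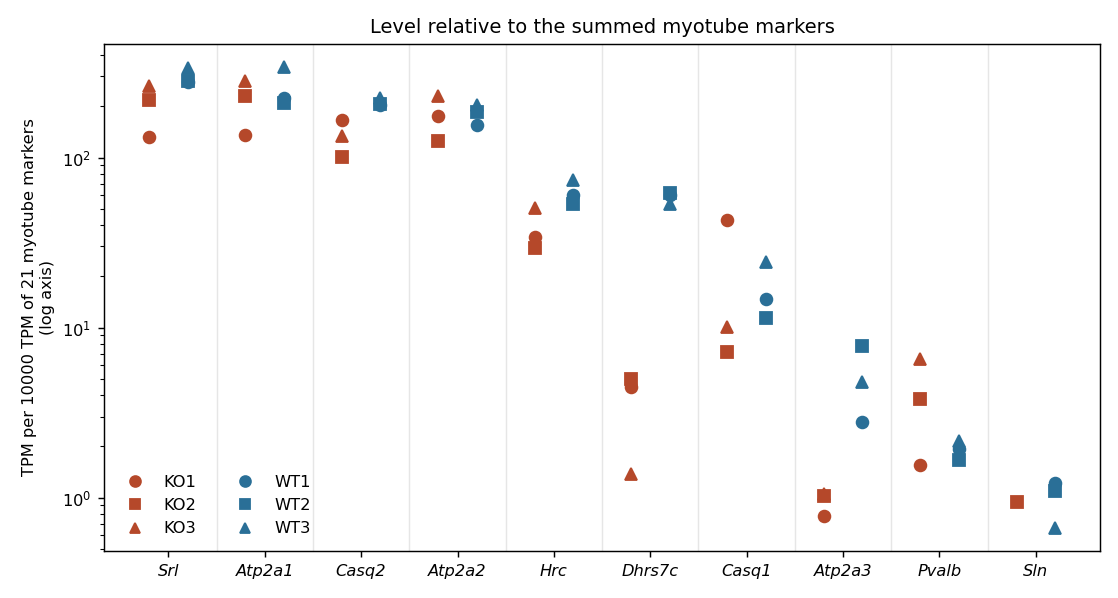
TPM of each gene per 10000 TPM of the summed 21 myotube markers, on a log axis, in the KO (red) and WT (blue) libraries, where values listed at 0 (*Sln* in KO1 and KO3) are not drawn. KO and WT are apart for *Dhrs7c*, *Atp2a3*, *Casq2*, *Srl* and *Hrc* and overlap for the other 5 genes.

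Across the libraries, the genes most like the mean profile of the set were *Ppp1r12b*, *Slc20a2*, *Myom3*, *Akap1* and *Dhrs7*, with Pearson's r of 0.994 to 0.998 over the same 6 libraries. *Myom3*, an M-band protein of the sarcomere, was 313, 141 and 159 CPM in KO and 446, 310 and 542 CPM in WT. *Dhrs7*, a relative of *Dhrs7c*, was 73.8, 54.1 and 54.0 CPM in KO and 95.4, 75.6 and 106 CPM in WT, a far smaller difference than that of *Dhrs7c*. Genes near the members on the chromosome were also counted. In the 10 Mb window from 60 to 70 Mb of chromosome 11, around *Dhrs7c*, 28 of 142 other tested genes (19.7%) passed as lower in KO, and in that from 70 to 80 Mb, around *Atp2a3*, 41 of 164 (25.0%), beside 10.6% of all genes. The median log2 fold changes in these windows were −0.19 and −0.23. The share ranged from 2.92% to 22.2% around the other members, and the part of these regions in the result was not tested.

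To place the set among other calcium-handling genes, 60 genes in 6 lists were taken by function. Of these, 58 were matched by name and 50 were tested. The test was passed by 13 genes, beside 22.7% of all tested genes, with 4 higher and 9 lower in KO (edgeR, adjusted over all genes). Without WT1 the count was 4 of 50, beside 933 of 15521 over all genes. Without KO1 it was 27 of 51, beside 4712 of 15409. Among peptides that regulate SERCA, *Pln* and *Mrln* were tested and 0 passed in edgeR (0 at an unadjusted p under 0.05, and 0 in DESeq2). Among 19 tested genes of calcium release and the triad, *Itpr3*, an inositol trisphosphate receptor, rose, and *Stac3*, an adaptor of the voltage sensor, and *Asph*, which encodes junctin among other products, fell. *Asph* was 78.4, 107 and 86.8 CPM in KO and 155, 153 and 162 CPM in WT, with a log2 fold change of −0.79 (SE 0.14, edgeR adjusted p = 0.00945). *Itpr3* changed by 0.59 (SE 0.12, edgeR adjusted p = 0.0137) and *Stac3* by −0.69 (SE 0.16, edgeR adjusted p = 0.020). At an unadjusted p under 0.05 there were 8 of the 19 genes, beside 39.0% of all tested genes. In DESeq2 7 passed, beside 4149 of 30252 genes. The list's median was −0.39, and −0.67 without KO1, against 0.03 over all genes. Its lowest value was that of *Trdn*, which encodes triadin and is named after its values were seen, at 177, 9.64 and 7.32 CPM in KO and 606, 495 and 678 CPM in WT. The log2 fold change of *Trdn*, −3.20 (SE 1.13, edgeR adjusted p = 0.0774), did not pass the threshold, and KO1 was again the highest KO library. Of 5 store-operated entry genes 0 passed in edgeR (1 at an unadjusted p under 0.05, and 1 in DESeq2), with a range of log2 fold changes from −1.30 to 0.34.

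Of 9 general calcium-binding proteins and chaperones of the endoplasmic reticulum, *Hspa5* (BiP) and *Hsp90b1* (GRP94) fell, beside 10.6% lower among all tested genes. An unadjusted p under 0.05 was reached by 6 of the 9, beside 39.0% of all tested genes. In DESeq2 4 passed, beside 4149 of 30252 genes. Fold changes were negative for 8 of the 9, with a median of −0.49. *Hspa5* was 1079, 559 and 727 CPM in KO and 2022, 1887 and 1349 CPM in WT, with a log2 fold change of −1.15 (SE 0.29, edgeR adjusted p = 0.0268). *Hsp90b1* changed by −0.61 (SE 0.18, edgeR adjusted p = 0.0479), and it passed in only 4 of 14 alternatives. Of 10 tested genes of calcium export and other stores, 5 passed, all lower in KO, beside 10.6% of all tested genes. *Slc8a1*, the sodium-calcium exchanger of the plasma membrane, was 12.5, 19.5 and 25.3 CPM in KO and 97.4, 89.3 and 81.0 CPM in WT. Its log2 fold change was −2.22 (SE 0.25, edgeR adjusted p = 0.00212), and in this gene KO1 was the lowest of the KO libraries. *Mcu*, the pore of the mitochondrial calcium uniporter, changed by −1.06 (SE 0.27, edgeR adjusted p = 0.0279). *Micu2*, a regulatory subunit of the uniporter, changed by −0.65 (SE 0.15, edgeR adjusted p = 0.0210). *Atp2b1*, a plasma membrane calcium pump, changed by −0.68 (SE 0.17, edgeR adjusted p = 0.0299).

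Of 5 tested cytosolic calcium-binding genes, 3 passed with higher levels in KO, beside 1796 of all 14828 tested genes in that direction. *Calm2*, which encodes calmodulin, was 320, 462 and 395 CPM in KO and 224, 250 and 207 CPM in WT, with a log2 fold change of 0.79 (SE 0.17, edgeR adjusted p = 0.0182). *S100a4* was 30.4, 47.2 and 27.5 CPM in KO and 5.09, 3.50 and 7.55 CPM in WT, with a log2 fold change of 2.70 (SE 0.33, edgeR adjusted p = 0.00272). Its deposited TPM were 826, 1686 and 1358 in KO and 188, 142 and 260 in WT, far higher than the counts would place it beside *Calm2*, so its level is uncertain while the direction was the same on both scales. In the 14 alternatives *Asph*, *Slc8a1* and *S100a4* passed each time. The other 8 genes named from these lists each lost the call in at least 1, and leaving out WT1 removed the call of each of these 8.

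**Figure D5:**
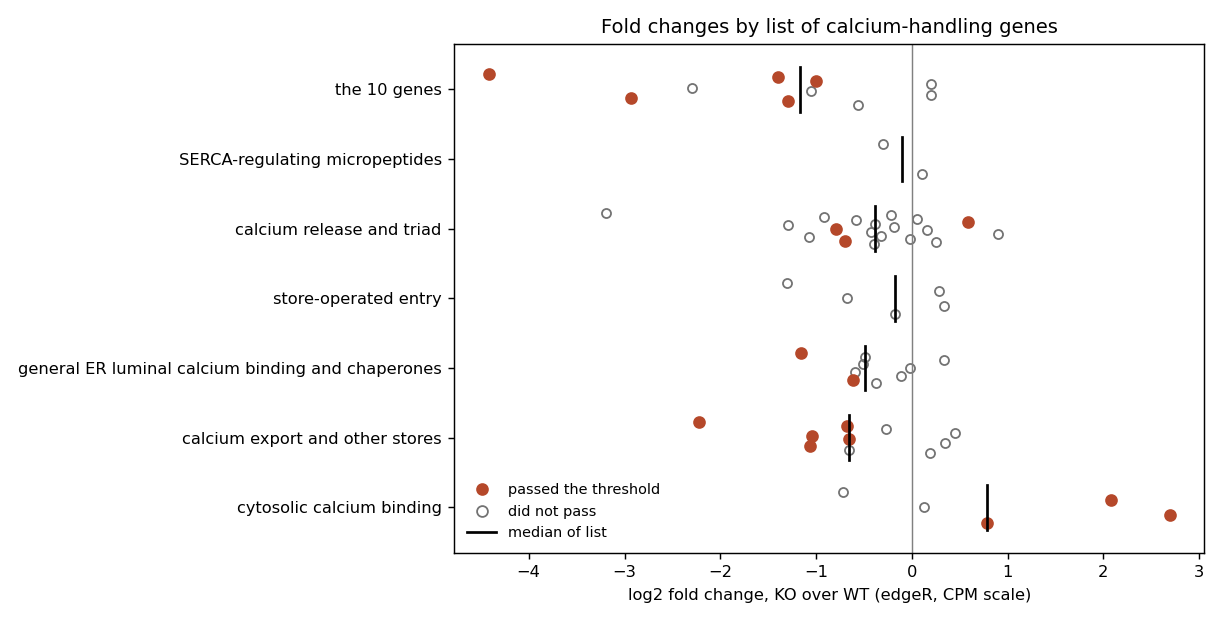
Log2 fold change of KO over WT (edgeR) for the 10 genes and for the tested genes of the 6 lists, 1 point per gene spread vertically for legibility, filled where the threshold was passed, with a bar at each median. The median of the 10 genes is −1.17, and those of the lists run from −0.65 for export and other stores to 0.79 for cytosolic binding.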

How the data were processed

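RNA of 3 KO and 3 WT cultures was analysed. The authors trimmed the reads, aligned them with STAR and deposited raw counts per gene, which were used without other scaling by them. They also deposited StringTie TPM values for each library. Tool versions, the annotation and whether strand was used are not given in the sources used here. The labels name mm9 and the methods GRCm39, but 83.2% of 45137 genes had the start and end of a GRCm38 annotation, so positions are on GRCm38. All 6 count columns were used and 0 were left unused.

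Counts were filtered with filterByExpr, scaled with TMM and tested over all genes with edgeR 4.0.16 (R 4.3.3), two-sided, with genotype alone, Benjamini-Hochberg adjustment and a threshold of 0.05. SE is the standard error of the log2 fold change. The 10 genes and all gene lists were chosen with earlier results of these data known. The text names all 10 genes, each list gene past the threshold (except items not reported here), leading markers and the 5 most similar profiles. Alternatives were DESeq2 1.42.0, its size factors, other filters, a replicate block, TPM with limma 3.58.1 on log2(TPM + 1) or log2(TPM + 0.1) for genes of at least 1 TPM in 3 libraries or unfiltered, and each library left out. Fold changes on the TPM scale understate changes of low genes. The fits were tested on simulated data.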

Additional observations from a re-analysis of the deposited data

How the results depend on the processing

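Over all genes, 3361 of 14828 passed in the comparison of KO with WT. This was 4149 of 30252 with DESeq2, 4538 of 30252 without a filter on low counts and 1075 of 27302 with unfiltered TPM. With a library left out it was 933 of 15521 (without WT1) to 4712 of 15409 (without KO1). The counts of the 10 genes and of the lists are to be read beside these. Of the 10 genes, 5 passed, 3 with unfiltered TPM and 2 (without WT1) to 8 (without KO1) with a library left out. Of the 50 other calcium-handling genes, 13 passed, 21 of 58 with DESeq2, 26 of 58 without a filter on low counts, 7 with unfiltered TPM and 4 to 27 with a library left out. *Casq1* turned from 0.20 to −0.88 with the replicate block, −0.68 on log2(TPM + 1) with or without the filter and −0.77 on log2(TPM + 0.1), and ran from −2.17 (without KO1) to 0.70 with a library left out, at −0.11 without WT2. *Pvalb* ran from −0.013 to 0.33, and was −0.0074 without WT2. The cause was not tested. *Sln* was removed by the filters of 3 alternatives. Whether replicate numbers pair KO and WT libraries is not stated. Correlations of same-numbered deviations were 0.16, −0.12 and −0.050, which with 3 libraries per genotype cannot decide it. With a replicate block 2520 of 14828 genes, 4 of the 10 genes and 16 of the 50 passed. At this depth *Sln*, with 1 count in 2 KO libraries, is the gene limited by counting.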
